A study of Mus musculus with 6 samples.

Results

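The genes examined here were Mx1, Mx2, Rsad2, Cmpk2, Bst2, Ifitm3, Ifi44, Xaf1, Samd9l and Rtp4, which encode interferon-induced proteins that act on viruses, on the membranes they cross or on the nucleotides they need, or that limit the growth of infected cells. They were taken by symbol from the table of counts per gene, where each of the 10 symbols matched 1 of the 55487 genes listed. Of the 10, 9 were expressed highly enough to be tested, among 12669 genes tested in all, and Ifi44 was not. RNA was sequenced from B16F10 cells, a mouse melanoma line, after 3 independent infections per group. The control group (shCtr, n = 3, genotype labelled WT) carried a scramble shRNA, and the depleted group (shOSGEP, n = 3, genotype labelled KD OSGEP) carried the hairpin numbered 2 against Osgep. KEOPS, the complex that modifies tRNAs with t6A, has OSGEP as its catalytic subunit. Per the methods of the study, both groups were infected with lentivirus and selected with puromycin, so the controls share both of these treatments. The labels name no added interferon and no other virus, and the comparison rests on 1 hairpin in 1 line.

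Type I interferon binds the receptor IFNAR1/IFNAR2, and signalling through the kinases JAK1 and TYK2 leads to the assembly of the factor ISGF3, of which IRF9 is a subunit. ISGF3 binds the interferon-stimulated response element in the promoters of its target genes, and IRF3 and IRF7, the factors that act below RIG-I-like receptors, can bind related elements. The proteins of the genes described here act at different steps of a viral life cycle: MX proteins are dynamin-like GTPases that trap viral nucleocapsids, viperin (from Rsad2) makes a chain-terminating nucleotide from a substrate that CMPK2 helps to supply, IFITM3 blocks fusion in endosomes, and tetherin (from Bst2) holds budding particles at the cell surface.

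The promoters were searched first, since the response element is what these genes are known to share. RefSeq promoter windows (GRCm38.p6, from 250 bases before to 50 bases after the start) were held for 7 of the 10 genes; Mx1, Mx2 and Rtp4 had no entry. The core of the element was read as GAAA, any 2 bases and GAAA again. On the other strand it reads TTTC, any 2 bases and TTTC, and matches may overlap. A match was found in 3 of the 7 genes (Rsad2, Bst2 and Ifitm3). The background was 3.99% of all 27025 genes with a window, or 3.44% of all 32851 windows. Of 47 other interferon-induced genes with a window, 57.4% held a match, against 3.99% of all genes with a window. No match lay in the windows of Cmpk2, Ifi44, Xaf1 and Samd9l, which says only that these letters are not in those 300 bases. The matched stretches are given here 5′ to 3′ on the strand of the gene, with the matched letters in capitals. They were taken from chr12:26456538-26456597 for Rsad2, chr8:71537565-71537624 for Bst2 and chr7:141010715-141010744 for Ifitm3, all on the minus strand.
Rsad2: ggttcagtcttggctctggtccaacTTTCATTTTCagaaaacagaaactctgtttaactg
Bst2: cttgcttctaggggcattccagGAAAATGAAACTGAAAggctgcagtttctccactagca
Ifitm3: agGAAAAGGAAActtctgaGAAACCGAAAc
In Rsad2 the single match began 120 bases before the start and lay on the opposite strand. In Bst2 a pair of overlapping matches began 130 and 124 bases before the start, and in Ifitm3 a pair lay just after the start, from bases 3 to 12 and 20 to 29 of the transcribed part as RefSeq sets it. A match of letters is a description and not evidence of binding.

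Library depth ranged from 18915587 to 29487384 counts. Library values are in CPM (counts per 1000000 counts of the TMM-scaled library), and Log2FC is the log2 ratio of shOSGEP to shCtr from edgeR. In the check of the knockdown, Osgep had 20.6, 58.6 and 21.8 CPM in shCtr replicates 1, 2 and 3. The shOSGEP replicates held 4.28, 0.542 and 5.51 CPM, so the groups did not overlap. The same-numbered log2 ratios were -2.24, -6.54 and -1.97. Number 2 thus had the highest control level, the lowest depleted level and the largest difference in Osgep. Replicate 2 stood apart in both groups. All 10 markers of melanocytic cells were expressed, but their summed level was 3712 CPM in shOSGEP replicate 2 against 16096 to 31633 CPM in the other 5 libraries, and the transcripts of shCtr replicate 2 were shifted towards high GC content. Of 12 leukocyte markers 8 had no count in any library, Ptprc and Itgam among them; their summed level was 0.0921 to 0.127 CPM in shCtr and 0.0424 to 0.620 CPM in shOSGEP. The upper value, in shOSGEP replicate 2, came mostly from 13 counts of Csf1r. Of 8 markers of fibroblasts and endothelium 3 had no count in any library, but their summed level was 5.06 to 11.3 CPM in shCtr and 13.1 to 19.9 CPM in shOSGEP, mostly from Pdgfrb. Of 4 keratinocyte markers 2 had no count in any library, and the summed level was at most 0.0491 CPM in shCtr and 0.0424 CPM in shOSGEP. The part of these markers and of replicate 2 in the differences of the antiviral genes was not tested beyond the fits without single libraries.

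Depletion of OSGEP went with higher mean levels of most of these antiviral genes, but the spread between libraries of a group was wide. None of these genes passed the adjusted threshold, and neither did any other tested gene. Log2FC was above 0 for 8 of the 9 tested genes, against 47.3% of all tested genes, and its median was 1.23, against -0.032 for all tested genes. Mx2 (Log2FC 2.32), Rtp4 (2.12), Xaf1 (1.79) and Mx1 (1.60) had the highest values, whereas Cmpk2 (0.34), Ifitm3 (0.26) and Bst2 (-0.13) had the lowest. With edgeR's quasi-likelihood test 0 of the 9 genes had an adjusted p under 0.05, as had 0.0% of all tested genes. An unadjusted p under 0.05 was found for 2 of the 9, against 2.02% of all tested genes, and DESeq2 and limma-voom also gave 0 of 9 after adjustment. By the threshold of the study (Log2FC beyond 0.5 and an unadjusted p under 0.05), 2 of 9 genes passed as higher in shOSGEP, Mx2 and Rtp4, against a background of 1.59% of all tested genes, and none passed as lower, against 0.426% (2.02% in both directions together). With the replicate number as a block, 5 of 9 passed it (Mx2, Rsad2, Xaf1, Samd9l and Rtp4; background 2.32%). It was passed by 5 of 9 in DESeq2 (background 1.97%), 2 of 9 in limma-voom (3.35%) and 4 of 9 with offsets for GC content and length (3.4%). The groups did not overlap for 1 of the 9, Rtp4, while 3.49% of all tested genes lay wholly higher in shOSGEP.

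Within replicate numbers the direction was more uniform than the size. The labels number the replicates 1 to 3 in both groups, without saying what a number marks. Of the 9 genes 7 were higher in shOSGEP in all 3 same-numbered comparisons, against 17.6% of all tested genes. The exceptions were Cmpk2 and Bst2. The median log2 ratio of the 9 genes was 0.88 for number 1, 2.30 for number 2 and 0.45 for number 3, while the medians of all tested genes were -0.03, 0.11 and -0.01. In each number 8 of the 9 genes were higher. Number 2 thus gave the largest median, and without shOSGEP replicate 2 the median Log2FC was 0.60 and 0 of 9 genes passed the threshold of the study (background 0.416%). Without both libraries of number 2 the median was 0.76, again with 0 of 9 past the threshold (background 1.26%). Also 0 of 9 passed without shCtr replicate 3 (background 0.818%), and 1 of 9 without shCtr replicate 2 (2.06%) or without shOSGEP replicate 1 (1.41%). RNA of a whole culture cannot tell whether more cells expressed a gene or each cell held more of its RNA.

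**Figure D1:**
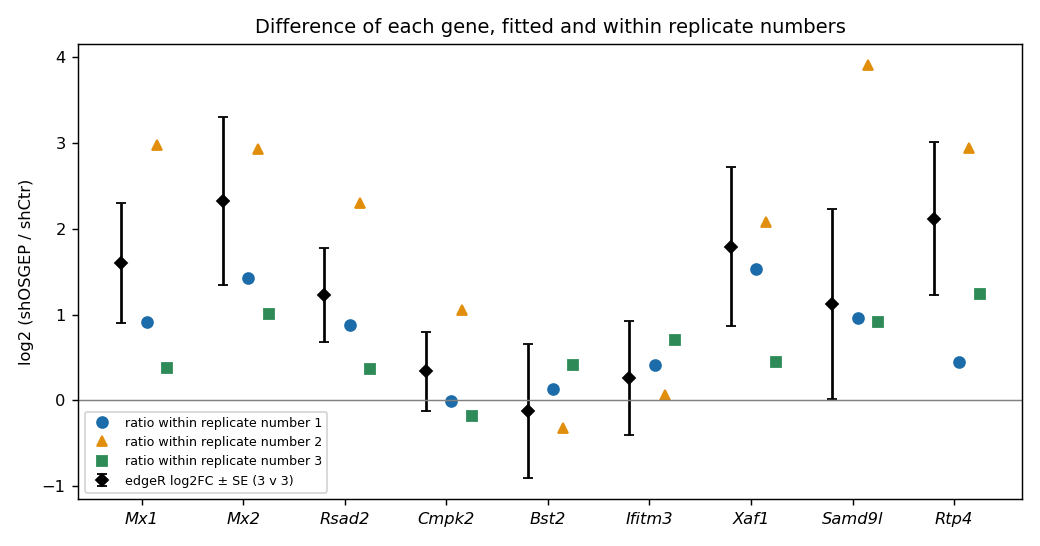
Log2 ratio of shOSGEP to shCtr (vertical axis) for each tested antiviral gene (horizontal axis). Black diamonds are the edgeR Log2FC with its SE (3 libraries against 3), and coloured symbols are the ratios within replicate numbers 1, 2 and 3; number 2 lies highest for 7 of the 9 genes, whereas for Bst2 and Ifitm3 it lies lowest.

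The MX GTPases were measured at low levels. Mx1 (ENSMUSG00000000386, protein-coding, chromosome 16, 97447035 to 97462907, minus strand) restricts influenza and related viruses, although the allele of most laboratory mouse strains is known to lack part of the coding sequence. It had 1.95, 0.737 and 1.15 CPM in shCtr, from 46, 15 and 25 counts, against 3.77, 6.39 and 1.53 CPM in shOSGEP, from 81, 165 and 36 counts. Each shOSGEP library was above its same-numbered control, but shOSGEP replicate 3 was below shCtr replicate 1, so the groups overlapped. The means were 1.28 ± 0.618 and 3.89 ± 2.43 CPM (SD, n = 3), and the Log2FC was 1.60 (SE 0.699, unadjusted p 0.0505, adjusted p 1.00 in edgeR) and p = 0.2 in the exact permutation test (two-sided), which cannot go below 0.1 with 3 libraries against 3.

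Mx2 (ENSMUSG00000023341, chromosome 16, 97535308 to 97560900, plus strand), whose protein acts in the cytoplasm, is annotated as a polymorphic pseudogene in the reference strain. It had 1.02, 0.884 and 0.230 CPM in shCtr, from 24, 18 and 5 counts, against 2.88, 7.32 and 0.551 CPM in shOSGEP, from 62, 189 and 13 counts. The same-numbered ratios were 1.42, 2.93 and 1.01 on the log2 scale, all upwards, yet shOSGEP replicate 3 fell within the shCtr range. Mx2 had the largest Log2FC of the 9 genes, 2.32 (SE 0.976, unadjusted p 0.0434, adjusted p 1.00 in edgeR; exact permutation p = 0.3), which was 1.27 without shOSGEP replicate 2. Sequences shared between the paralogs limit both values: of the 31-base words in their transcripts, 8.67% for Mx1 and 7.96% for Mx2 occur in another gene, mostly the other MX gene.

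Rsad2 and Cmpk2 are neighbours, 12752 bases apart on chromosome 12 and transcribed away from each other, and they work in one pathway. Rsad2 (ENSMUSG00000020641, 26442746 to 26456452, minus strand) encodes viperin, a radical SAM enzyme, and carries the promoter match printed above. It had 21.1, 9.33 and 12.9 CPM in the shCtr libraries, and the shOSGEP libraries held 38.7, 46.2 and 16.7 CPM. Only shOSGEP replicate 3 lay within the shCtr range, below shCtr replicate 1. The means were 14.4 ± 6.0 and 33.9 ± 15.3 CPM (SD, n = 3), and the Log2FC was 1.23 (SE 0.542, unadjusted p 0.0522, adjusted p 1.00 in edgeR; exact permutation p = 0.2). With the replicate block the Log2FC was 1.17 and the unadjusted p 0.0482, and without shOSGEP replicate 2 the Log2FC was 0.94.

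Cmpk2 (ENSMUSG00000020638, 26469204 to 26479837, plus strand), a mitochondrial nucleoside monophosphate kinase, differed less between the groups. It had 9.89, 7.37 and 9.03 CPM in the shCtr libraries, and the shOSGEP libraries held 9.86, 15.4 and 7.97 CPM. Only shOSGEP replicate 2 was above all controls. The Log2FC of 0.34 (SE 0.463, unadjusted p 0.486 in edgeR) was smaller than its error, and it was -0.085 without both libraries of number 2.

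Bst2 and Ifitm3 had the highest mean CPM of the 10 genes in both groups and followed another pattern. In shOSGEP replicate 1, however, Samd9l (44.8 CPM) was above Bst2. Bst2 (ENSMUSG00000046718, chromosome 8, 71534255 to 71537456, minus strand) had 36.7, 171 and 32.0 CPM in the shCtr libraries, and the shOSGEP libraries held 40.3, 136 and 42.6 CPM. Both libraries of number 2 were high, the control above the depleted one, while the other 4 lay within 32.0 to 42.6 CPM. Its Log2FC was -0.13 (SE 0.779, unadjusted p 0.874 in edgeR); it was 1.09 without shCtr replicate 2 and -0.91 without shOSGEP replicate 2. Its direction turned without shCtr replicate 2, and it was also above 0 without shOSGEP replicate 1 (0.17) or 3 (0.14).

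Ifitm3 (ENSMUSG00000025492, chromosome 7, 141009586 to 141010770, minus strand) had 94.2, 361 and 102 CPM in the shCtr libraries, and the shOSGEP libraries held 125, 377 and 166 CPM. It was higher in shOSGEP in every same-numbered comparison, by 0.41, 0.06 and 0.70 on the log2 scale, but again both number 2 libraries were far above the rest and the groups overlapped. The Log2FC was 0.26 (SE 0.667, unadjusted p 0.704 in edgeR), 1.18 without shCtr replicate 2 and -0.32 without shOSGEP replicate 2. With GC and length offsets and the replicate block it was 0.52 (SE 0.164, unadjusted p 0.0270, adjusted p 0.549 in edgeR), in a range of adjusted p over all alternatives from 0.549 to 1.00. Of its 31-base words 20.5% occur in another gene, with Ifitm2 and a pseudogene among them, so a part of its counts is uncertain.

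**Figure D2:**
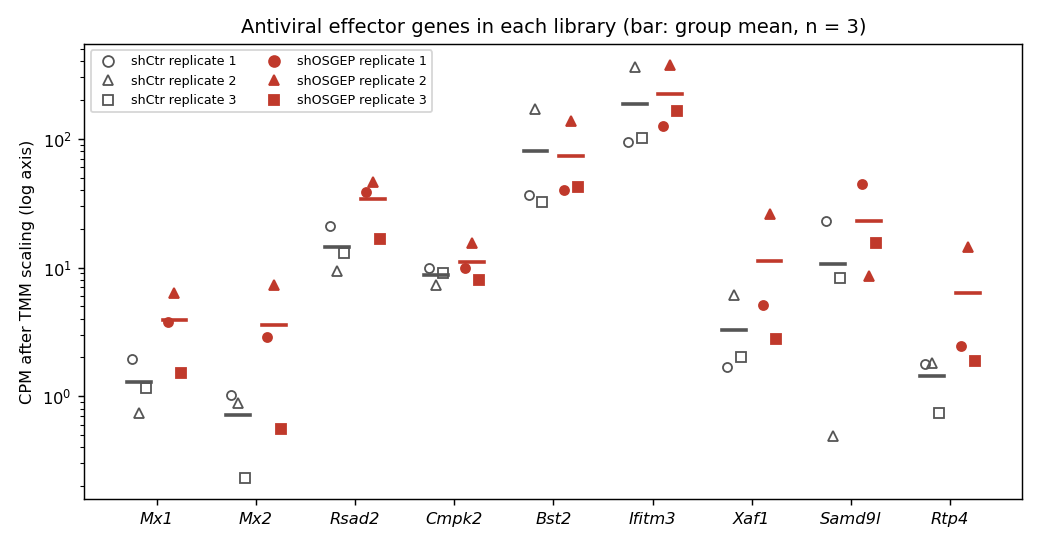
CPM after TMM scaling (vertical log axis) of the 9 tested antiviral genes in every library; open grey symbols are shCtr, filled red symbols shOSGEP, shapes mark the replicate number and bars the group means (n = 3). Only for Rtp4 do all shOSGEP points lie above all shCtr points, and for Bst2 and Ifitm3 the triangles of both groups (replicate 2) lie far above the other libraries.

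Xaf1, Samd9l and Rtp4 encode interferon-induced proteins with effects on cell growth or on viral replication. Xaf1 (ENSMUSG00000040483, chromosome 11, 72301629 to 72313733, plus strand), which encodes a pro-apoptotic partner of the caspase inhibitor XIAP, had 1.70, 6.09 and 2.03 CPM in the shCtr libraries, and the shOSGEP libraries held 5.07, 26.1 and 2.80 CPM. Each shOSGEP library exceeded its same-numbered control, and shCtr replicate 2 overlapped the shOSGEP range. The Log2FC was 1.79 (SE 0.926, unadjusted p 0.0882, adjusted p 1.00 in edgeR; exact permutation p = 0.3). It was 0.29 without shOSGEP replicate 2 and 2.6 without shCtr replicate 2.

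Samd9l (ENSMUSG00000047735, chromosome 6, 3372257 to 3399572, minus strand), whose protein restricts poxviruses and slows cell growth, had 22.9, 0.491 and 8.29 CPM in shCtr, from 539, 10 and 180 counts, against 44.8, 8.63 and 15.6 CPM in shOSGEP, from 963, 223 and 369 counts. The library low in this gene was shCtr replicate 2, and the same-numbered log2 ratios of 0.97, 3.91 and 0.91 were all upwards. The Log2FC was 1.12, with an SE of nearly the same size (1.11, unadjusted p 0.340 in edgeR). With the replicate block the Log2FC was 1.80 (SE 0.715, unadjusted p 0.0491, adjusted p 0.741 in edgeR), in a range of adjusted p over all alternatives from 0.549 to 1.00.

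Rtp4 (ENSMUSG00000033355, chromosome 16, 23520291 to 23614222, plus strand), a receptor-transporting chaperone that is also induced by interferon, had 1.78, 1.82 and 0.737 CPM in shCtr, from 42, 37 and 16 counts, against 2.46, 14.5 and 1.87 CPM in shOSGEP, from 53, 375 and 44 counts. All shOSGEP libraries were above all shCtr libraries, although the lowest of the first, 1.87 CPM, was next to the highest of the second, 1.82 CPM. The means were 1.45 ± 0.614 and 6.28 ± 7.14 CPM (SD, n = 3), and the Log2FC was 2.12 (SE 0.891, unadjusted p 0.0439, adjusted p 1.00 in edgeR; exact permutation p = 0.1, the smallest possible). Without shOSGEP replicate 2 the Log2FC was 0.60. The span of Rtp4 overlaps Gm45338 on the same strand, with which it shares 12.5% of its 31-base words, and Masp1 on the opposite strand; Gm45338 averaged 2.18 CPM in shCtr against 4.90 CPM in shOSGEP, and Masp1 106 CPM against 175 CPM. Masp1 shared none of the 31-base words of Rtp4 transcripts, searched on both strands, so its overlap is one of gene spans. Whether strand was used in counting is not given.

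Ifi44, which encodes a cytoplasmic protein linked to control of viral replication and cell growth, was not detectable at this depth in 4 of the 6 libraries. It had 0, 0 and 1 counts in shCtr and 0, 4 and 0 counts in shOSGEP (ENSMUSG00000028037, chromosome 3, 151730922 to 151749960, minus strand). A count of 0 allows up to 3 counts, or 0.116 to 0.147 CPM depending on the library, and covers counting error only. Its neighbour and paralog Ifi44l had 0 counts in all 6 libraries. No ratio is given.

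Per kilobase of annotated exon, the levels of these genes spanned a wide range, which the groups shared. In shCtr the order of mean CPM per kilobase was Ifitm3 (274), Bst2 (101), Rsad2 (3.82), Cmpk2 (2.74), Samd9l (1.98), Xaf1 (1.26), Rtp4 (0.741), Mx1 (0.378), Mx2 (0.293) and Ifi44 (0.00528). Only Bst2 against Rsad2 and Mx2 against Ifi44 were neighbours whose library ranges lay apart, and all other neighbours overlapped. In shOSGEP the order was Ifitm3 (328), Bst2 (92.3), Rsad2 (8.95), Xaf1 (4.35), Samd9l (4.32), Cmpk2 (3.46), Rtp4 (3.22), Mx2 (1.48), Mx1 (1.15) and Ifi44 (0.0177). There Ifitm3 against Bst2, Bst2 against Rsad2 and Mx1 against Ifi44 lay apart. The order of the genes from Xaf1 to Cmpk2, and that of Mx2 and Mx1, was thus not separable from the spread between libraries.

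Part of the spread followed the composition of the transcripts. In shCtr replicate 2, tested transcripts under 40% GC lay at a median of -3.01 against the mean of the other shCtr libraries in log2 CPM (771 genes), and those over 55% GC at 1.19 (2840 genes). Most of the antiviral genes lay along the same gradient: Samd9l, with 38.8% GC, differed by -4.58, Rsad2 (44.3%) by -0.82, Mx2 (51.1%) by 0.71, Ifitm3 (51.8%) by 1.88 and Bst2 (55.3%) by 2.31. Across the 9 genes, which share these libraries and are not independent replicates, the Spearman correlation of the difference with GC content was 0.90, against 0.708 across 12658 tested genes. Xaf1 (47.4% GC) and Rtp4 (49.0% GC) were exceptions, at 1.67 and 0.62 where transcripts of 45% to 50% GC had a median of -0.50.

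In shOSGEP replicate 2 the gradient over all genes was weaker, with a Spearman correlation of 0.252 (0.667 across the 9 genes) and medians from -1.09 to 0.20 in the GC classes. Here 8 of the 9 antiviral genes lay above the other shOSGEP libraries, from 0.79 for Cmpk2 to 2.43 for Mx2, 2.71 for Rtp4 and 2.76 for Xaf1. Samd9l, the lowest of the 9 in GC content, was the exception at -1.61, where transcripts under 40% GC had a median of -1.09. With offsets that remove the GC and length trends together with a replicate block, Log2FC was above 0 for 9 of 9 genes with a median of 1.27, and 6 of 9 passed the threshold of the study (Mx2, Rsad2, Ifitm3, Xaf1, Samd9l and Rtp4; background 3.77%). None of the 9 had an adjusted p under 0.05 in that fit.

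**Figure D3:**
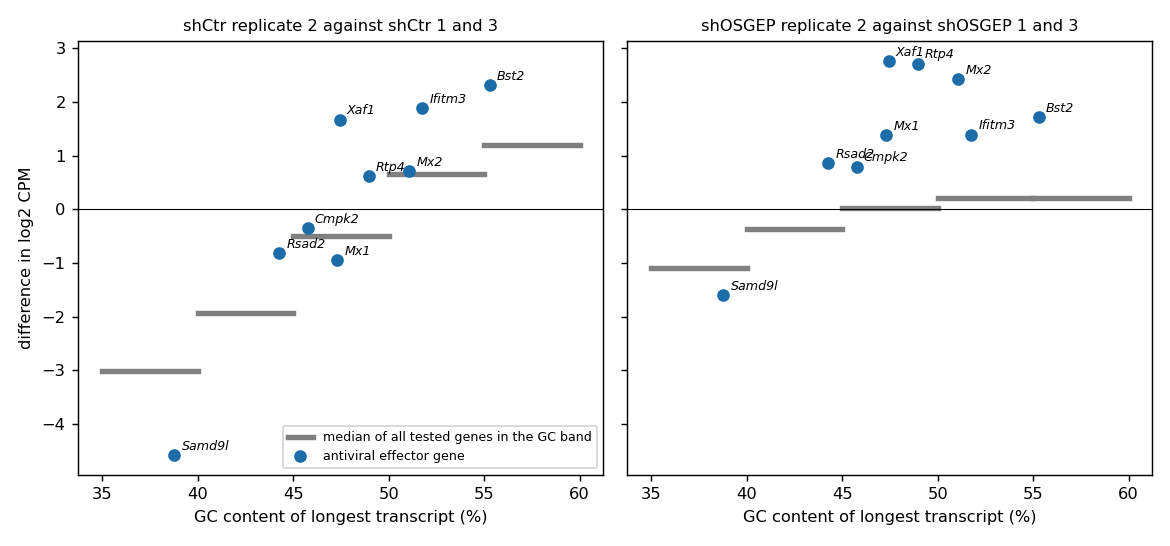
Difference in log2 CPM (vertical axis) of replicate 2 from the mean of the other libraries of its group, against the GC content of the longest transcript in percent (horizontal axis), for shCtr (left) and shOSGEP (right). Blue points are the 9 tested antiviral genes and grey bars the medians of all tested genes per GC class; the outer classes, under 40% and from 55% upwards, are drawn at the same width as the others. On the left the genes range from Samd9l (-4.58) to Bst2 (2.31), and Xaf1 and Rtp4 lie above 0 while the bar of their class lies below it; on the right 8 of 9 lie above the bars.

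Most of the 9 genes varied together over the 6 libraries, but Samd9l, Bst2 and Ifitm3 did so less. Of the 36 pairs of genes 23 had a Pearson correlation of log2 CPM above 0.5, and the median was 0.640, or 0.762 without the pairs of Samd9l. Bst2 and Ifitm3 correlated with each other at 0.967, but with Mx1, Rsad2 and Cmpk2 only at -0.027 to 0.236. These correlations describe 6 libraries in which replicate 2 stands apart. Against the mean standardised profile, to which each gene itself contributes, Rtp4 (0.976), Mx2 (0.965), Xaf1 (0.893) and Mx1 (0.892) were closest, and Ifitm3 (0.556), Bst2 (0.494) and Samd9l (0.178) were farthest. Among 10969 other genes with a mean of at least 50 counts, the 5 most similar in profile were Abhd10, Acp2, Lyrm9, Ache and Thbs3, with correlations from 0.991 to 0.999 over the 6 libraries. Their Log2FC were only 0.19 to 0.66, since a correlation of profiles takes no account of the size of a difference.

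To place these genes in their pathway, lists of its other genes were examined, chosen with earlier results of these data known. Of 21 interferon genes 20 had no count in any library, and Ifnz had at most 3 counts, so no interferon gene exceeded the 3 counts that a count of 0 allows. All 6 receptor genes were tested and none passed the threshold of the study. Ifnar1 and Ifnar2, the type I receptor subunits, had Log2FC of 0.18 and 0.10, while Ifngr1, Ifngr2 and Ifnlr1 had 0.36, 0.03 and 0.55. Il10rb, which serves the interferon lambda receptor, had 149, 132 and 113 CPM in the shCtr libraries, and the shOSGEP libraries held 89.3, 33.6 and 80.3 CPM, lower without overlap (Log2FC -0.95, SE 0.466, unadjusted p 0.0737 in edgeR; background of groups wholly lower 2.87%).

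Of 16 tested genes of interferon signalling, 10 had a Log2FC above 0 (47.3% of all tested genes) and 1, Irf5, passed the threshold of the study as higher (1.59% of all tested genes). In this list 2 were wholly higher in shOSGEP (3.49% of all tested genes) and none wholly lower (2.87%). Irf5, an interferon regulatory factor, had a Log2FC of 2.63 (SE 0.821), from 0.170 to 0.393 CPM in shCtr and 0.465 to 2.90 CPM in shOSGEP. These levels are low and rest on 4, 8 and 4 counts in shCtr and 10, 75 and 31 counts in shOSGEP. Irf9, which encodes the DNA-binding subunit of ISGF3, and Usp18, a brake on the receptor, had Log2FC of 1.54 and 2.76, with overlap between groups.

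Among these lists the other interferon-induced genes had the median Log2FC nearest to that of the antiviral effectors. Of 44 tested, 39 had a Log2FC above 0 (47.3% of all tested genes), with a median of 0.99. As higher, 11 passed the threshold of the study (1.59% of all tested genes) and none as lower (0.426%), and 14 were wholly higher in shOSGEP (3.49%). Lowest in unadjusted p were Gbp2 (a GTPase, Log2FC 2.06), Ddx58 (which encodes RIG-I, 1.72), Dhx58 (which encodes LGP2, 2.57) and Ifit1 (which binds foreign RNA ends, 1.88). Of the 21 tested paralogs and other direct effectors, 14 had a Log2FC above 0 (47.3% of all tested genes) and the median was 0.18. In this list 5 were wholly higher in shOSGEP (3.49% of all tested genes) and 1 wholly lower (2.87%). Trim30d (Log2FC 2.63) and Plscr2 (2.99) passed the threshold of the study as higher (1.59% of all tested genes), both below 6 CPM in every library. Trim12c (2.13) and Serinc3 (0.86) did not. Both Trim30d and Trim12c had 0 counts in shCtr replicate 2. No gene of any of these lists had an adjusted p under 0.05 in edgeR, and whether the lists differ from each other was not tested.

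**Figure D4:**
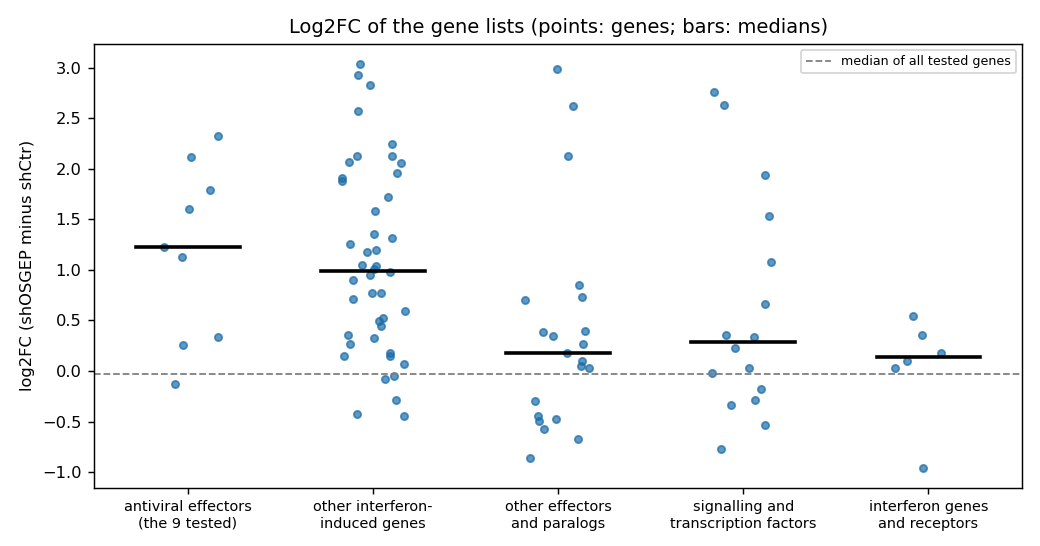
Log2FC of shOSGEP minus shCtr (vertical axis) for each tested gene of 5 lists (points, spread sideways at random) with list medians as black bars and the median of all tested genes as a dashed line. The medians are 1.23 for the 9 antiviral effectors, 0.99 for 44 other interferon-induced genes, 0.18 for 21 other effectors and paralogs, 0.28 for 16 signalling genes and 0.14 for 6 receptor genes.

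The alternatives separated the genes into those whose direction held and those whose direction did not. Log2FC stayed above 0 in all alternatives for Mx1 (0.76 to 2.07), Mx2 (1.27 to 2.83), Rsad2 (0.70 to 1.60), Xaf1 (0.29 to 2.6), Samd9l (0.20 to 2.39) and Rtp4 (0.60 to 2.69). It crossed 0 for Cmpk2, Ifitm3 and Bst2. The genes whose direction held were also those highest in Log2FC with all 6 libraries. The alternatives reuse these libraries, and the share of all tested genes that kept 1 direction was not computed. The threshold of the study was passed most often by Rtp4, in 12 of 18 alternatives, then by Mx2 in 10 of 17, Mx1 and Rsad2 in 7 of 18, Xaf1 in 6, Samd9l in 3, Ifitm3 in 1, and Cmpk2 and Bst2 in none. For Samd9l the lowest value was the one without shOSGEP replicate 1, and for Xaf1 and Rtp4 the one without shOSGEP replicate 2.

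**Figure D5:**
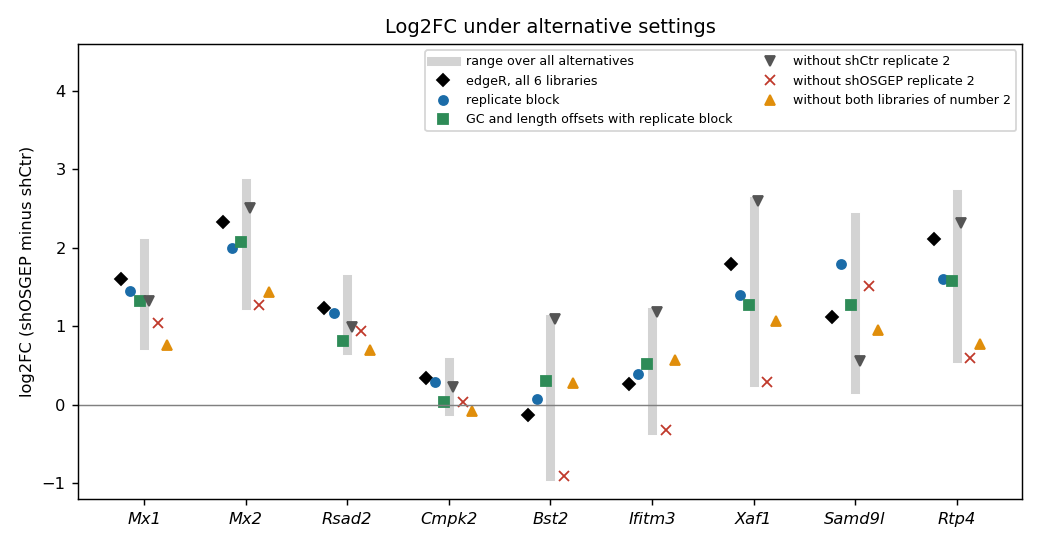
Log2FC of shOSGEP minus shCtr (vertical axis) of each tested antiviral gene under the edgeR fit with all 6 libraries (black diamonds) and 5 of the alternatives (other symbols); grey bars span all alternatives. The bars lie above 0 for Mx1, Mx2, Rsad2, Xaf1, Samd9l and Rtp4 and cross 0 for Cmpk2, Bst2 (-0.91 to 1.09) and Ifitm3 (-0.32 to 1.18).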

How the data were processed

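PolyA RNA of B16F10 cells was sequenced from 3 shCtr and 3 shOSGEP infections. Per the methods of the study, reads were trimmed with TrimGalore, aligned to GRCm38 with STAR and quantified with Salmon; the versions in the submitters' processing notes are STAR 2.6.1d and Salmon 1.4.0, and the annotation release is not given in the sources used here. The values deposited by the authors are estimated counts for each Ensembl gene as whole numbers, without normalization or filter. Positions, lengths and GC contents were taken from GENCODE M21 (GRCm38), which held 99.5% of the identifiers.

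Groups and replicate numbers came from the labels. Genes were kept by filterByExpr (minimum count 10, minimum total 15), scaled by TMM and tested with edgeR 4.0.16 (R 4.3.3; quasi-likelihood F-test, two-sided, no block), with Benjamini-Hochberg adjustment over 12669 genes. SE is the Log2FC divided by the square root of F. Log2 CPM used a prior count of 2, also in the same-numbered ratios and the exact permutation tests. The edgeR fit was tested on simulated counts. No use of molecular identifiers is stated, so floors cover counting error only. The replicate number was taken to pair the libraries in the block and in the same-numbered ratios. The edgeR fit without a block and the permutation tests were unpaired. Deviations from group means correlated at 0.811, 0.557 and 0.196 across genes for numbers 1, 2 and 3 (limit 0.1). Between numbers they ranged from -0.784 to 0.491. There shCtr 3 correlated more with shOSGEP 1 (0.491) than with shOSGEP 3, and shCtr 2 with shOSGEP 3 (0.138) was also above the limit. Within each number the library names of both groups share an ending, which differs between numbers. The labels do not say what a number or an ending marks, so pairing by number is not settled.

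The genes and lists were chosen with earlier results of these data known, as were the tests and the 18 alternatives: DESeq2 1.42.0, limma-voom (limma 3.58.1) with quality weights, RLE and upper-quartile scaling, other filters, the block, GC and length offsets (natural splines, 5 degrees of freedom each) with and without block, and libraries left out. Named were all 10 genes and Osgep, up to 4 genes with the smallest unadjusted p per list, all tested receptor genes, paralogs or neighbours within 50000 bases, and the 5 genes of most similar profile. A gene that this rule names is not reported here.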

Additional observations from a re-analysis of the deposited data

How the results depend on the processing

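No alternative gave any of the antiviral genes an adjusted p under 0.05. Genes with an adjusted p under 0.05 among all tested numbered 0 in edgeR under every alternative, 14 in DESeq2 and 3 in limma-voom; 256 had an unadjusted p under 0.05 in edgeR. Past the threshold of the study were 256 genes (202 higher, 54 lower), 560 with limma-voom, 599 without a low-count filter (more genes were tested), 634 with GC and length offsets (431 higher, 203 lower), 823 with these offsets and the replicate block (477 and 346), 163 without both libraries of number 3, and 67 to 453 when single libraries were left out, the lowest without shOSGEP replicate 2 and the highest without shCtr replicate 1. Of the 9 antiviral genes 2 passed this threshold as higher, against 1.59% of all tested genes. In DESeq2, without a low-count filter and with the replicate block it was 5 (backgrounds 1.97%, 1.97% and 2.32%). Upper-quartile scaling and GC and length offsets each gave 4 (1.97% and 3.4%), and the offsets with the block 6 (3.77%). Without both libraries of number 2 or of number 3 it was 0 (1.26% and 0.825%). With 1 library left out it was 0 to 5 (0.416% to 2.09%), with 5 reached without shOSGEP 3 (2.09%). At least 10 counts in every library removed Mx2. With the block, as without it, no adjusted p fell below the threshold. Osgep passed only in DESeq2 (Log2FC -3.32, adjusted p 0.0386; 0.0386 to 1.00 over its alternatives).

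The direction of Bst2 turned with limma-voom (0.49), upper-quartile scaling (0.054), the replicate block (0.073), GC and length offsets (0.33), these with the block (0.31), without both libraries of number 2 (0.27), and with 1 library left out (range -0.91 to 1.09, above 0 without shCtr 2, shOSGEP 1 or shOSGEP 3). Ifitm3 turned without shCtr 1, shCtr 3 or shOSGEP 2 (range -0.32 to 1.18 with 1 library left out), and Cmpk2 without both libraries of number 2 (-0.085). The other 148 of 161 values of the 9 genes kept their direction. The cause of these changes was not tested. DESeq2 split its 370 genes into 250 higher and 120 lower. Upper-quartile scaling moved the median Log2FC of all genes from -0.032 to 0.071 and that of the 9 genes from 1.23 to 1.34.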

Other observations

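A pair of ratios within libraries was chosen after the values were seen and carries no test. Ifitm2, the paralog of Ifitm3 with a similar transcript (655 against 678 bases, 54.4% against 51.8% GC), had 182, 644 and 215 CPM in the shCtr libraries, and the shOSGEP libraries held 161, 253 and 240 CPM. The ratio of Ifitm3 counts to Ifitm2 counts was 0.518, 0.561 and 0.472 in shCtr and 0.780, 1.49 and 0.691 in shOSGEP. The groups did not overlap in this ratio, whereas they did in Ifitm3 itself. The libraries of number 2 were high for both paralogs in shCtr, so the ratio was less spread among controls than either level. Because a part of the reads fits more than one IFITM gene, the split of counts between them by Salmon is uncertain, and the ratio shows an unequal difference, not which paralog differed.

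The ratio of Rsad2 counts to those of its neighbour Cmpk2 was 2.13, 1.27 and 1.43 in shCtr and 3.93, 2.99 and 2.10 in shOSGEP. Here shOSGEP replicate 3 lay just below shCtr replicate 1, and the other libraries of the groups were apart.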
